A study of Drosophila melanogaster with 7 samples.

Results

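The glutathione S-transferases and redox enzymes of the embryo were followed in lolaORC4 mutants, which lack a single isoform, Lola K, of the transcription factor Lola. The members are the array features whose single gene symbol in the platform's probe table begins with Gst, Prx, Trx, Sod, Gcl or Jafrac or is Cat, PHGPx, GS or se. They came to 43 features of 39 genes, out of 10376 features in all, of which 8598 carry exactly 1 gene symbol. No feature matched Jafrac, PHGPx or GS. Of the members, 24 are glutathione S-transferase features and 19 belong to peroxiredoxins, thioredoxins, thioredoxin reductases, superoxide dismutases, catalase and glutathione synthesis, or, by the letters of their names alone, to the sorbitol dehydrogenases Sodh1 and Sodh2, which are not superoxide dismutases. A further 5 features list several genes of which 1 matches the rule, and were neither counted nor named by gene.

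RNA was compared on 7 two-colour spotted cDNA arrays, each hybridized with a mutant and a control sample of about 300 pooled embryos collected 10 to 12 hours after egg laying. Mutant embryos had lolaORC4 on both second chromosomes, of which 1 also held the driver sca-GAL4 and the other the reporter UAS-tau-eGFP, on a w1118 background; controls were also w1118 and had the same driver over the same reporter without lolaORC4. The embryos were sorted by the green fluorescence this combination gives in the nervous system. The second chromosomes of mutants and controls were not the same stock chromosomes, so an effect of the allele and one of other sequence on them cannot be told apart. Each value is a log2 ratio of the 2 samples of an array, so it holds no expression level, and the labelled stage and tissue could not be checked against markers. In whole embryos, fewer cells of a type and less RNA per cell cannot be told apart either.

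Glutathione is a small thiol that cells use to detoxify and to keep proteins reduced. Glutathione S-transferases join it to reactive or foreign compounds. The Delta and Epsilon classes are the expanded insect classes, known for insecticide resistance, while the Omega, Theta and Zeta classes have relatives in mammals. Superoxide dismutases turn superoxide into hydrogen peroxide, which catalase and the peroxiredoxins remove. Flies have no glutathione reductase, and thioredoxin with thioredoxin reductase does that work as well. Many of these genes are induced through the transcription factor CncC and its inhibitor Keap1.

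All values keep the sign in which they were deposited, and that sign is not taken as mutant over control. By the labels, Cy3 marked the mutant RNA of replicates 1, 4 and 6 (3 arrays) and Cy5 that of replicates 2, 3, 5 and 7 (4 arrays), whereas the methods give these dye counts the other way round, and which arrays were turned is not stated. Every pair of arrays correlated positively over all features. The r was 0.30 to 0.72 for pairs of the same dye orientation and 0.06 to 0.63 for pairs of opposite orientation. No pair ran in opposite ways, but an r of 0.06 is too low to settle the orientation of every array by itself. As a reference, the clones GH13327 and SD10157 of spir, an actin nucleation factor gene, had means of -1.58 and -1.15. Both were negative on 7 of 7 arrays. The study describes spir as higher in lola null embryos, and if that also held for lolaORC4, a negative value would stand for a higher level in the mutant; for this array series the direction is not settled. A member called positive below therefore ran against spir, and one called negative ran with it. Clones of lola itself had means of -0.46, -0.17, -0.14 and 0.44 and, with their isoforms unstated, are no check of the genotype.

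Of the 43 member features 11, or 25.6%, had a mean different from 0 (adjusted p under 0.05, limma, Benjamini-Hochberg over the whole table). Of all features tested, 7.64% did. The members were chosen with earlier results of these data known, so their share is no test of these families. Among the members 6 were positive and 5 negative, where 4.46% of all features were called positive and 3.18% negative. The 11 features belong to 10 genes, since Prx6c was called on both of its clones. Without the Prx6b and Prx6c features, whose clones cannot be taken as separate measurements, 8 of 40 members were called (20%), 6 positive and 2 negative. The count lay between 6 and 12 when single arrays were left out, with 7 without replicate 3, 6 without replicate 5 and 7 without replicate 7. The members as a group had no common direction. Their means were positive for 21 features and negative for 22, and their median mean was -0.0049 against -0.0067 for all features. The median absolute mean was 0.13 in the members and 0.06 over all features, and the median SD between arrays was 0.19 and 0.14.

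**Figure D1:**
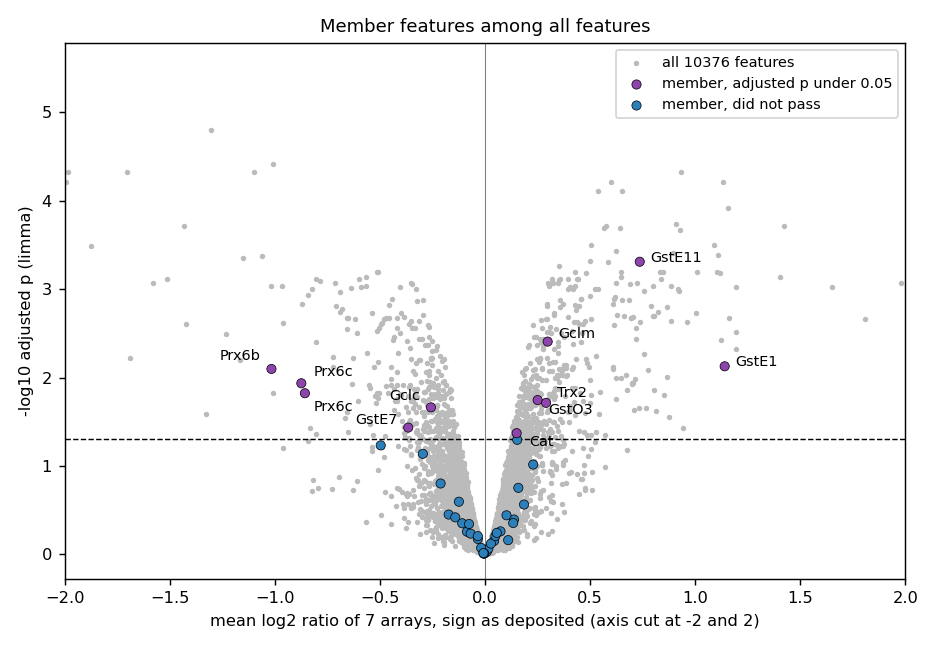
Mean log2 ratio of 7 arrays (x axis, sign as deposited) against -log10 of the adjusted p from limma (y axis) for all features (grey) and the 43 members (purple, adjusted p under 0.05; blue, did not pass), with the threshold dashed. GstE1 and GstE11 lie far to the right and the Prx6b and Prx6c clones far to the left; 13 features lie outside the plotted range.

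The Epsilon class held the widest spread of the glutathione S-transferases. GstE1 was positive on every array, with log2 ratios of 0.61, 0.47, 1.95, 0.79, 1.44, 0.77 and 1.95 on replicates 1 to 7. Its mean was 1.14 ± 0.63 (SD, n = 7), a 2.20-fold difference, with an adjusted p of 0.0075 from limma. Replicates 3, 5 and 7 lay clearly above the other 4, and all 3 carried the mutant in Cy5, but so did replicate 2, the lowest. The dye coefficient of GstE1 was 0.36 (standard error 0.16) and did not pass (adjusted p = 0.20, limma). GstE11 was the steadier of the positive pair, with log2 ratios of 0.63, 1.07, 0.65, 0.61, 0.99, 0.55 and 0.64. Its mean was 0.74 ± 0.21 (SD, n = 7), or 1.66-fold, with an adjusted p of 0.00049 from limma, the lowest of any member. Leaving out any array kept both genes past the threshold, with adjusted p up to 0.028 for GstE1 and 0.0024 for GstE11 (limma).

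GstE7 went the other way. Its log2 ratios were 0.11, -0.28, -0.41, -0.53, -0.37, -0.28 and -0.80, negative on 6 of 7 arrays, with a mean of -0.37 ± 0.28 (SD, n = 7) and an adjusted p of 0.037 from limma. The call was lost when replicate 2, 3, 4, 5, 6 or 7 was left out, with means of -0.38 to -0.29 and an adjusted p of at most 0.097 (limma). Its close paralogs GstE6 and GstE9 had similar values but did not pass. GstE6 was at -0.14, 0.02, -0.57, -0.58, -0.55, -0.32 and -1.34 (mean -0.50, adjusted p = 0.058, limma). GstE9 was at -0.04, -0.0073, -0.33, -0.33, -0.41, -0.17 and -0.79 (mean -0.30, adjusted p = 0.073, limma). Replicate 7 was the lowest array for all 3 genes, but this was not particular to them. It was also the lowest for other members, GstD4, GstE2, GstE14 and Prx3 among them, and for both spir clones (-2.71 and -1.81). Both GstE6 and GstE9 passed with quantile normalization between arrays (adjusted p = 0.025 and 0.049, limma) and with array weights (0.031 and 0.040).

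These Epsilon genes follow one another on arm 2R, with other genes between some of them. In the RefSeq gene order (Release 6 plus ISO1 MT) GstE1, GstE2 and GstE3 are direct neighbours, GstE6 follows after 2 protein-coding genes, GstE7 is next to it, GstE9 follows after 1 more, and GstE11 lies 12 protein-coding genes further on. In the map order of these members, the called positive values stand first and last (GstE1 and GstE11) and the called negative one between them (GstE7). GstE11 lies apart from the others. GstE2, next to GstE1, was at 0.02 (standard error 0.04, adjusted p = 0.86, limma), between -0.12 and 0.09 on all arrays. GstE3 ran from -0.49 to 0.75, with the highest value on replicate 1 and the lowest on replicate 7, and had a mean of 0.11 (adjusted p = 0.69, limma). Spotted cDNAs of close paralogs can bind each other's RNA, and how far the clones of GstE6, GstE7 and GstE9 did so was not tested.

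The remaining Epsilon genes lie elsewhere on 2R. GstE12 had a mean of -0.0049 and GstE14 of 0.04, and neither passed. GstE14, also called noppera-bo, is needed for ecdysteroid synthesis. GstE13 had a mean of -0.21 (adjusted p = 0.16, limma) and passed with a dye coefficient in the model (adjusted p = 0.048, limma).

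**Figure D2:**
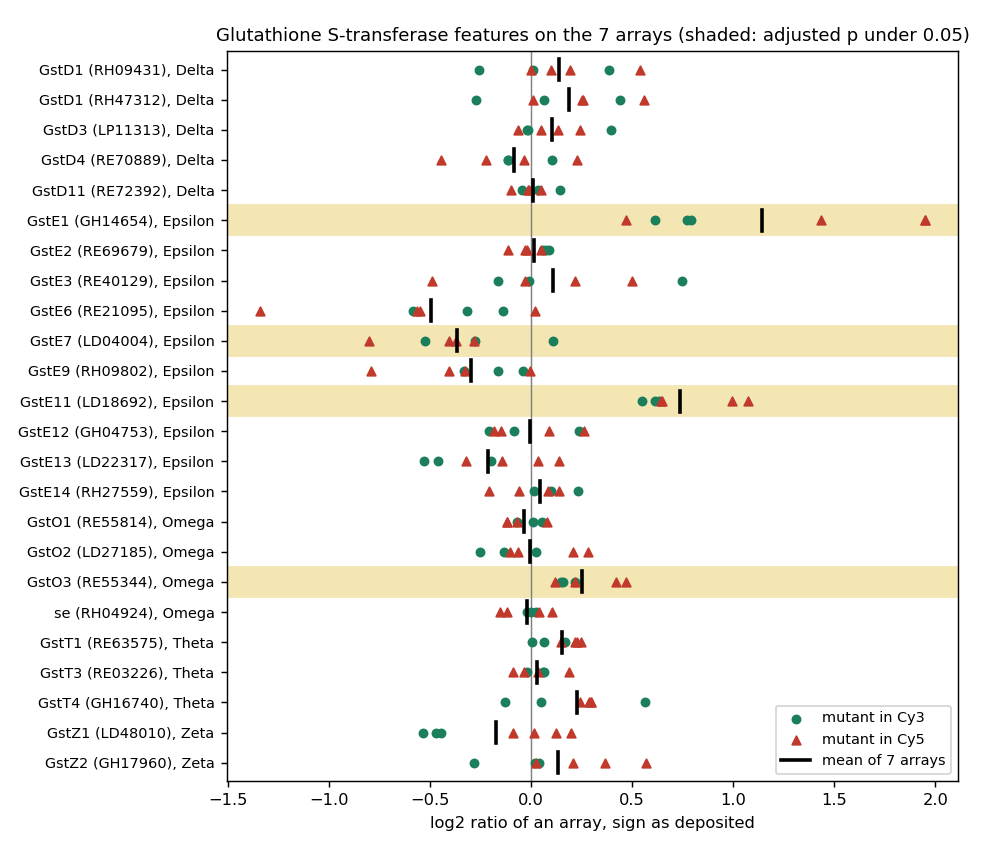
Log2 ratio of each array (x axis, sign as deposited) for the 24 glutathione S-transferase features (rows), with the mutant in Cy3 (green circles) or Cy5 (red triangles) and the mean of 7 arrays as a bar; shaded rows passed an adjusted p under 0.05. GstE1 and GstE11 lie wholly above 0, GstE7 mostly below, and for GstZ1 the dye orientations do not overlap.

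The Delta class, whose genes form a cluster on arm 3R, had no called feature among 5 by limma, and none had an unadjusted p under 0.05. With so few features this cannot be told apart from the 7.64% of all features called. GstD1 encodes an enzyme that breaks down DDT and is a usual readout of CncC activity. Its clone RH47312 had log2 ratios of -0.28, 0.25, 0.0082, 0.06, 0.56, 0.44 and 0.25, with a mean of 0.19 (standard error 0.09, adjusted p = 0.27, limma). Clone RH09431 followed it on every array, with a mean of 0.14 and a difference between the clones of 0.16 at most. The array-to-array SD of these clones was 0.26 and 0.28, and that of their difference 0.06. The spread of GstD1 was thus common to both spots of an array, with replicate 1 low and replicates 5 and 6 high. GstD3 had the same arrays on top, with 0.39 on replicate 6 and 0.24 on replicate 5 and a mean of 0.10. GstD4 (mean -0.09) and GstD11 (mean 0.0083) did not pass either.

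The Omega genes GstO3, se, GstO2 and GstO1 are direct neighbours on arm 3L. Among them GstO3 was called, with log2 ratios of 0.15, 0.22, 0.47, 0.22, 0.42, 0.16 and 0.12. All arrays were positive, and the mean was 0.25 ± 0.14 (SD, n = 7; adjusted p = 0.018, limma); without replicate 5 it was 0.22 and did not pass (adjusted p = 0.058). The neighbour se, or sepia, whose enzyme makes a precursor of the red eye pigments, had a mean of -0.02, and GstO2 and GstO1 had means of -0.0074 and -0.03. None of these 3 passed.

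**Figure D3:**
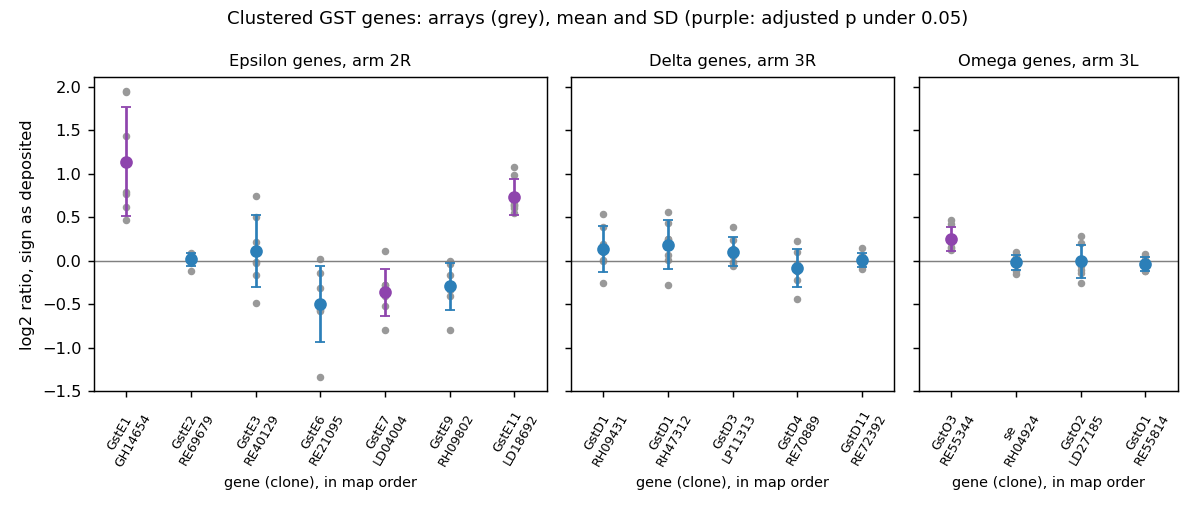
Log2 ratios (y axis, sign as deposited) of the Epsilon, Delta and Omega features of clustered genes in map order (x axis), with the 7 arrays in grey and the mean and SD in colour (purple, adjusted p under 0.05; blue, did not pass). The Epsilon features shown, with GstE11 apart from the others on the map, span means from -0.50 to 1.14, while all Delta means lie between -0.09 and 0.19.

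The Theta and Zeta classes had no called feature by limma among 5, too few to tell apart from the 7.64% of all features called. Of these 5 features GstT1 and GstT4 had an unadjusted p under 0.05. GstT4 was at 0.23 (adjusted p = 0.096, limma) with log2 ratios of -0.13, 0.30, 0.29, 0.05, 0.24, 0.56 and 0.30. GstT1 was positive on every array, from 0.0044 to 0.24, with a mean of 0.15 and an adjusted p of 0.051 from limma. GstT1 passed with a dye coefficient (adjusted p = 0.025, limma), with centred arrays (0.0495), with quantile normalization (0.044) and with array weights (0.045). GstT3 had a mean of 0.03 (adjusted p = 0.75, limma).

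GstZ1 followed the dyes. The Zeta enzymes act in the breakdown of tyrosine. With the mutant RNA in Cy3 (3 arrays) GstZ1 was at -0.47, -0.54 and -0.45, and with it in Cy5 (4 arrays) at 0.20, 0.01, 0.12 and -0.09. The orientations do not overlap, and the dye coefficient was 0.27 (standard error 0.04, adjusted p = 0.0044, limma). The mean was -0.17 and did not pass without the coefficient (adjusted p = 0.35, limma), but did with it (-0.21, adjusted p = 0.014). Its neighbour GstZ2 had a mean of 0.13 (adjusted p = 0.44, limma). Of all features 10.6% had a dye coefficient different from 0 at an adjusted p under 0.05 (limma), and 3 of the 43 members did. The other two were Trx2 and the peroxiredoxin gene Prx6a, described below.

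The peroxiredoxins gave the largest negative values. Prx6b and Prx6c encode 1-cysteine peroxiredoxins and lie on arm 2R with 2 protein-coding genes between them. Prx6b had log2 ratios of -0.40, -0.37, -0.70, -1.65, -0.97, -1.79 and -1.23 on replicates 1 to 7, with a mean of -1.02 ± 0.57 (SD, n = 7), or 2.02-fold, and an adjusted p of 0.0080 from limma. Clone RE05093 of Prx6c had -0.22, -0.21, -0.59, -1.34, -0.94, -1.64 and -1.06 (mean -0.86 ± 0.55, SD, n = 7; adjusted p = 0.015, limma). Clone RH69586 of Prx6c had -0.25, -0.43, -0.58, -1.43, -0.88, -1.69 and -0.86 (mean -0.87 ± 0.53, SD, n = 7; adjusted p = 0.012, limma). All 3 clones were negative on every array, lowest on replicates 6 and 4 and nearest to 0 on replicates 1 and 2.

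The shared pattern was much tighter than the spread between arrays. Each of the 3 clones varied between arrays with an SD of 0.53 to 0.57, while the differences between clones had SDs of 0.08 to 0.13. Clone RE05501, which lists several genes, was at -1.17 (adjusted p = 0.0064, limma) and lay within 0.29 of the Prx6b clone on every array. The genes are close paralogs, and how far their clones bind each other's RNA was not tested. The clones therefore cannot be taken as separate measurements of separate genes, although the counts of called members include each of them. Replicates 4 and 6, the lowest, carried the mutant in Cy3, and so did replicate 1, among those nearest to 0. Means of the 3 clones were -1.28 to -1.07 with the mutant in Cy3 and -0.82 to -0.69 with it in Cy5. The dye coefficients of the 3 clones (0.18 to 0.23) did not pass (adjusted p from 0.40 to 0.52, limma). Leaving out single arrays gave means of -1.12 to -0.89 for Prx6b, which passed each time. Clone RE05093 lost its call without replicate 7 (-0.82, adjusted p = 0.0503, limma).

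**Figure D4:**
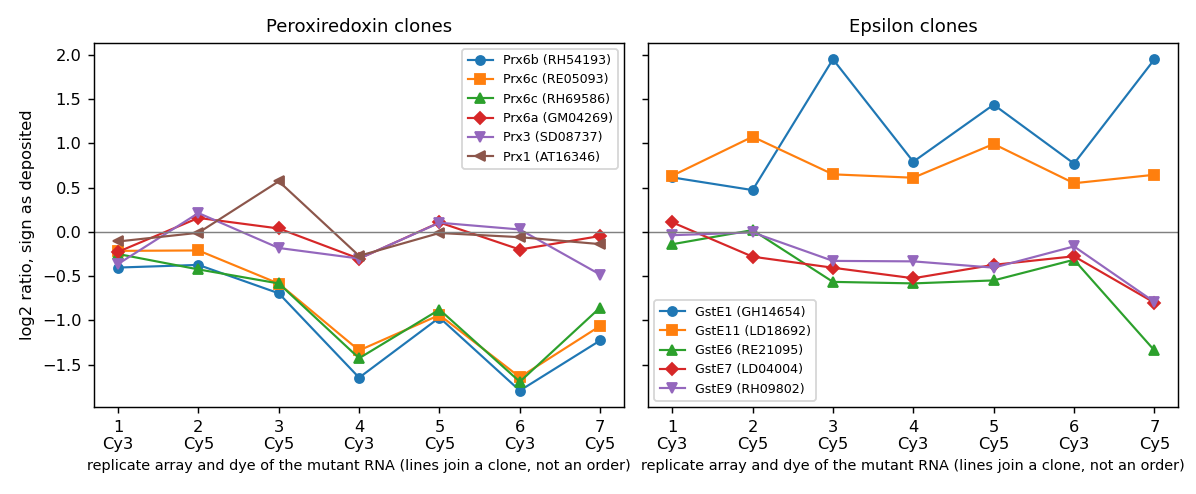
Log2 ratio (y axis, sign as deposited) on each of the 7 arrays (x axis, with the dye of the mutant RNA) for 6 peroxiredoxin clones (left) and 5 Epsilon clones (right); lines join the values of a clone. The Prx6b and Prx6c clones fall on nearly the same line, and GstE6, GstE7 and GstE9 share their lowest value on replicate 7, as some other members do.

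The other peroxiredoxins did not pass. Prx6a, the third gene of the 1-cysteine type on the arrays, had a mean of -0.07 (adjusted p = 0.58, limma) and followed the dyes, with -0.23, -0.30 and -0.20 where the mutant was in Cy3 and -0.05 to 0.16 where it was in Cy5. Its dye coefficient of 0.15 passed (standard error 0.03, adjusted p = 0.026, limma). Prx3, the mitochondrial peroxiredoxin, ran from -0.48 to 0.21 with a mean of -0.14. Prx1 lay between -0.27 and -0.01 on 6 arrays and at 0.57 on replicate 3.

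In the thioredoxin system the cytosolic thioredoxin Trx2 was positive. Its log2 ratios were 0.05, 0.32, 0.42, 0.10, 0.49, 0.21 and 0.44, with a mean of 0.29 ± 0.17 (SD, n = 7; adjusted p = 0.019, limma). The 3 Cy3 arrays of the mutant (mean 0.12) lay below the 4 others (mean 0.42) without overlap, and the dye coefficient of 0.15 passed (standard error 0.03, adjusted p = 0.031, limma). With that coefficient in the model Trx2 still differed from 0 (0.27, adjusted p = 0.0028, limma). Without replicate 3, 5 or 7, which are 3 of the 4 Cy5 arrays, the mean was 0.26 to 0.27 and the call was lost (limma, adjusted p at most 0.064). TrxT, the testis thioredoxin, had a mean of -0.12 (adjusted p = 0.25, limma).

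Thioredoxin reductase did not pass. The clones of Trxr1, the cytosolic and mitochondrial enzyme, had means of -0.0076 (GM14215) and 0.07 (LD21729), and their difference had an SD of 0.04 over the arrays. LD21729 was at 0.02, -0.29, 0.17, 0.21, 0.10, 0.08 and 0.22. Both clones were lowest on replicate 2. Trxr2 had a mean of -0.03 and stayed between -0.14 and 0.03.

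The subunits of glutamate-cysteine ligase, the rate-limiting enzyme of glutathione synthesis, had opposite signs. Gclm, the modifier subunit, was at 0.34, 0.10, 0.29, 0.32, 0.31, 0.24 and 0.48, with a mean of 0.30 ± 0.11 (SD, n = 7), and an adjusted p of 0.0039 from limma. Gclc, the catalytic subunit, was at -0.35, -0.26, -0.50, -0.18, -0.33, -0.05 and -0.13, with a mean of -0.26 ± 0.15 (SD, n = 7), and an adjusted p of 0.022 from limma. No value of one gene overlapped those of the other. Gclm passed whichever array was left out (0.27 to 0.33), whereas Gclc lost its call when replicate 1, 3 or 5 was left out (means -0.25 to -0.22, limma adjusted p at most 0.069). The dye coefficients were -0.0028 for Gclm and -0.06 for Gclc (standard errors 0.04 and 0.05). Neither passed (adjusted p = 0.98 and 0.53, limma).

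Of the enzymes that remove superoxide and hydrogen peroxide, other than the peroxiredoxins above, catalase was called and the 3 superoxide dismutase features were not. These 3 features belong to Sod2 and Sod3, and Sod1 is not among the members. Cat was positive on every array, at 0.07, 0.06, 0.22, 0.24, 0.19, 0.18 and 0.07. Its mean of 0.15 ± 0.08 (SD, n = 7; 1.11-fold) was the smallest of the called members, and its adjusted p of 0.043 (limma) lay near the threshold. Cat did not pass with centred arrays (adjusted p = 0.0502, limma) or without replicate 1, 3, 4, 5, 6 or 7 (up to 0.13). Clone GH23708 of the extracellular dismutase gene Sod3 had log2 ratios of 0.14, 0.25, 0.35, 0.11, 0.31, -0.20 and 0.14 (mean 0.16, adjusted p = 0.18, limma), and clone GH07275 had a mean of 0.06. The Sod3 clones did not follow each other closely, as their difference had an SD of 0.19 while they varied with SDs of 0.13 and 0.18. Sod2, the mitochondrial manganese enzyme, had a mean of 0.05 (adjusted p = 0.62, limma). Sodh1 and Sodh2 had means of -0.11 and -0.08 and did not pass.

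**Figure D5:**
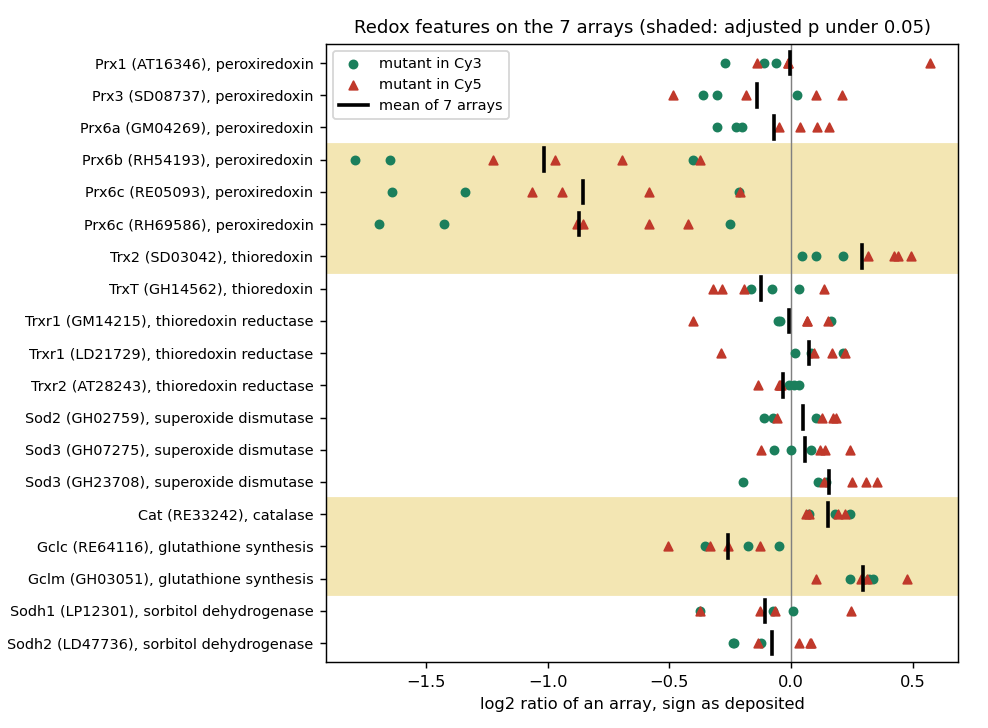
Log2 ratio of each array (x axis, sign as deposited) for the 19 other member features (rows), with the mutant in Cy3 (green circles) or Cy5 (red triangles) and the mean of 7 arrays as a bar; shaded rows passed an adjusted p under 0.05. All arrays of the Prx6b and Prx6c clones and of Gclc lie below 0, and all of Trx2, Cat and Gclm above it.

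By chromosome arm the counts of called members were small, and differences between arms were not tested. On 2R, the arm that also carries lola, 6 of 17 member features were called (35.3%), where 6.61% of all features placed on 2R were. These 6 were GstE1, GstE7, GstE11 and the 3 Prx6b and Prx6c clones, which cannot be taken as separate measurements. On 3L 2 of 7 member features passed (GstO3 and Cat; 6.79% of all features there), on 2L 1 of 2 (Trx2; 9.81%) and on X 1 of 6 (Gclc; 7.05%). On 3R 1 of 11 passed (Gclm), or 9.09%, near the 7.01% of all features there.

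Lists of related pathway and stress genes outside the member names gave 16 called features of 83 (19.3%, against 7.64% of all features), 10 positive and 6 negative. The lists were chosen with earlier results of these data known, so the share is no test of these pathways. It also includes the misplaced genes named below. Of 9 features of CncC and Keap1 regulators 2 were positive and none negative: ref(2)P, the p62 autophagy adaptor, at 0.48 (0.19 to 0.87 over the arrays; adjusted p = 0.0061, limma) and the coactivator gene mbf1 at 0.17 on clone GH10148, while its clone GM01267 (0.12) did not pass. Neither did the genes the list is named for. Keap1 was at -0.26, negative on 7 of 7 arrays (adjusted p = 0.060, limma; it passed without replicate 1 or 2), and cnc at 0.18, positive on 7 of 7 (adjusted p = 0.086, limma). A list of 7 features meant for NADPH producers had 2 positive and 1 negative call; it also took in Nmdmc and Mdh1, which use NAD, and Trf2, a transcription factor gene listed in error by its gene number. Idh, the NADP-dependent isocitrate dehydrogenase, was at 0.75 (0.24 to 1.30; adjusted p = 0.0054, limma) and Pgd of the pentose phosphate pathway at 0.23. The negative call was Nmdmc of folate metabolism, at -0.36, and the NADP-dependent malic enzyme genes Men (-0.08) and Men-b (0.0056) did not pass.

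Further glutathione and thiol enzymes had 2 positive and 2 negative features of 17. The microsomal transferase Mgstl was at 0.28 on clone RE10696 (0.09 on RH59553, which did not pass) and CG4829 at 0.20, and GILT3, a thiol reductase of the lysosomal type, was at -0.43 and -0.39 on its 2 clones. The metallothionein MtnA had the largest positive value of the pathway genes, at 1.42 (1.01 to 2.08; adjusted p = 0.00019, limma). It was the positive 1 of 18 features of metal-binding and reactive oxygen genes, and both clones of the peroxidasin gene Pxn (-0.39 and -0.21) were the negative 2. For phase I and II detoxification 1 of 23 features was positive and 1 negative (8.7%, near the share of all features), namely the cytochrome P450 genes Cyp28a5 (0.61) and Cyp4e2 (-1.69, from -3.29 to -0.44). Among 9 heat and unfolded protein stress features, Hsp26 (0.77) and ERp60 (0.22) were positive and none was negative. Of these called pathway features, mbf1, Mgstl, CG4829, Pgd, ERp60 and clone RH42452 of GILT3 each lost the call without at least 1 array, between them without each of the 7.

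Some markers of cell types were called as well, where 7.64% of all features were. Pxn, above, is a hemocyte gene and accounted for both called features of 13 on the hemocyte list (15.4%), whose median was -0.02. Of 4 neuron features 2 were called (50%), nSyb (0.39) and clone RH24769 of nrv3 (0.55, not called without replicate 5), both positive. Clone RE38489 of nrv3 was at -0.04 and futsch at -0.07, and neither passed. On the glia list 3 of 13 were called (23.1%), with Gs2 at 0.62 and the Tret1-1 clones at -0.24 and -0.23. The median of the glia list was -0.05, and the glial gene repo, at -0.10, did not pass. Of 14 fat body and oenocyte features 1 was called (Lip4, -0.57), or 7.14%, near the share of all features. Of 13 midgut and Malpighian tubule features none was by limma (median -0.09), and 1 had an unadjusted p under 0.05. Their part in the members' values was not tested.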

How the data were processed

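The deposited values are log2 ratios, 1 per feature and array. The authors took GenePix intensities without background correction into limma, whose version the sources used here do not give, with print-tip loess within and scale normalization between arrays, and left out spots that lacked public sequence, were noted as contaminated or were not located. Direction, and which arrays were turned, are not stated. Column medians lay between -0.01 and 0.02, and no value was missing. Gene symbols came from the platform's annotation; 517 features list several genes and 1261 none. The Release 6 plus ISO1 MT gene table gave current symbols, arms and gene order only.

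In R 4.3.3, the functions lmFit and eBayes of limma 3.58.1 tested the mean of the 7 arrays against 0 for all 10376 features, and p-values were adjusted by Benjamini-Hochberg, with a threshold of 0.05. Each array is a matched pair, and the samples were collected independently per the labels. The number of arrays limits the precision. The procedure was tested on simulated data. Members and gene lists were chosen with earlier results of these data known. Named in full were the members that passed, the feature with the largest absolute mean of each class, all features of a gene with 1 that passed, up to 4 called features per pathway list, and spir; GstE2, GstE3, GstE6, GstE9, GstT1, Prx6a, Keap1, cnc, Men, Men-b and the marker genes were added after their values were seen. Alternatives were a dye coefficient, median centring, quantile normalization, array weights, robust empirical Bayes, a threshold of 0.01, averaging features of a gene, updated symbols and leaving out each array; leaving out the Prx6b and Prx6c features or the sorbitol dehydrogenases was added after the data were seen. Slide and scan batches are not given in the sources used here. No sequence is printed, since no sequence table was used.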

Additional observations from a re-analysis of the deposited data

Results flagged for a closer look

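Of 59 features checked for an array far from the other 6 (Dixon's gap test), 3 had one, where chance marks about 1 in 20. The Prx1 feature AT16346 was at 0.57 on replicate 3, with the others between -0.27 and -0.01. Both Trxr1 clones stood out on replicate 2, GM14215 at -0.40 against -0.05 to 0.17 and LD21729 at -0.29 against 0.02 to 0.22. Neither gene passed the test with or without these arrays. Outside the members, clone RE05501, which lists several genes, had a mean of -1.17 and was negative on 7 of 7 arrays.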

How the results depend on the processing

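Each value is the ratio of 1 mutant and 1 matched control sample, so the fit is itself paired. None of the 11 called members changed sign with a dye coefficient, centred arrays, quantile normalization, array weights, robust empirical Bayes or any array left out. The 11 called members became 14 with a dye coefficient, with quantile normalization or with array weights, and 11 with centred arrays or robust empirical Bayes. With features averaged per gene 11 of 39 genes were called (7 positive, 4 negative), against 10 genes without averaging. At an adjusted p under 0.01, 4 were called (3 positive, 1 negative), with 1 dye coefficient and 9 pathway features (of 16). Without the Prx6b and Prx6c features 2 negative calls were left. Leaving out each array gave 6 to 12 called members, 3 to 6 positive and 3 to 6 negative, and 1 to 4 dye coefficients; 5 of the 11 called members (GstE1, GstE11, Prx6b, Prx6c clone RH69586 and Gclm) passed each time. Over all features the 793 calls became 1234 with a dye coefficient, 313 at 0.01, 446 without replicate 3, 441 without replicate 5 and 494 without replicate 7. Updated symbols and leaving out Sodh1 and Sodh2 left 11 called members. The causes of these shifts were not tested. Signal over background is not known for any feature.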
